A study of Homo sapiens with 3 samples.

Results

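The human HOX cluster genes were described in ALL-SIL, an established line grown from a T-cell leukaemia of the acute lymphoblastic type (T-ALL), from peak lists of 2 histone marks. The members were the protein-coding RefSeq genes whose symbol is HOXA, HOXB, HOXC or HOXD followed by a number, which gave 39 genes in 4 clusters among 20037 protein-coding genes, and 38 of the 39 are described. Chromatin immunoprecipitation and sequencing (ChIP-seq) had been done for H3K4me1, with 1 library of 34813455 filtered tags, and for H3K4me3, with 1 library of 30823016. Both were called against 1 input DNA library of 18859011 filtered tags, and all 3 came from this line, with no agent or genetic change named in the labels. ALL-SIL is a single line derived from 1 leukaemia and is known for a rearrangement that activates the homeobox gene TLX1. With 1 library per mark there was no replicate error and no test, and intervals for shares are exact (Clopper-Pearson) 95% intervals that cover counting error only.

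HOX genes encode homeodomain transcription factors that give cells their position along the body axis, and in blood they act in stem and progenitor cells. Within each cluster the genes are read in the same direction and lie in order of their paralogue numbers, with low numbers active early and toward the head and high numbers late and toward the tail. Trithorax complexes such as those with KMT2A keep HOX genes open with H3K4me3, the mark of active or poised promoters, while Polycomb complexes silence them. H3K4me1 marks enhancers and the flanks of promoters. HOXA9, HOXA10 and HOXA11 are known to be highly expressed in a subset of T-ALL. A peak list describes a population of cells, so a mark carried by fewer cells and a weaker mark in each cell cannot be told apart.

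The labelled cell type was checked on marker genes. H3K4me3 lay over the gene or within 1 kb of it at 10 of 11 T cell markers, with CD2 as the exception, at 1 of 5 B cell markers (PAX5) and at 0 of 5 myeloid markers, against 53.4% of all protein-coding genes. H3K4me1 lay there at 11 of 11 T cell, 5 of 5 B cell and 2 of 5 myeloid markers, against 63.4% of all genes.

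HOX genes rarely carried H3K4me3 at their start in ALL-SIL. A peak lay within 1 kb of a start (listed, or the span end for 18 genes) at 5 of the 38 genes (13.2%, interval 4.41 to 28.1), while 53.5% of the 15843 protein-coding genes with a listed start had one. Among the 20 HOX genes with a listed start, as in that background, it was 4 (20%, interval 5.73 to 43.7). Those 20 were 9 of HOXA, 1 of HOXB, 2 of HOXC and 8 of HOXD, so most HOXB and HOXC genes drop out. The 5 marked genes of the 38 were HOXA3, HOXA4, HOXC4, HOXC5 and HOXC6, and they rested on 3 distinct peaks. HOXC4, HOXC5 and HOXC6 share 1 peak and 1 start position, listed for HOXC4 and HOXC5 and the span end of HOXC6. H3K4me1 lay within 1 kb of a start at 5 genes (13.2%, interval 4.41 to 28.1), against 40.9% of all genes. These were HOXA6, HOXC4, HOXC5, HOXC6 and HOXD1, on 3 distinct peaks, and 4 of the 20 listed ones were among them. The H3K4me1 count fell to 2 with peaks above the list's median −log10 q, and to 0 where −log10 q had to reach 10 or 50% of the start window had to be covered. Under that last rule the H3K4me3 count was 2. Shares of all genes were not computed for these stricter settings, and 2.82% of the whole H3K4me1 list reached a −log10 q of 10. Both marks were at 3 starts, those of the HOXC trio (all genes 35.6%), and neither mark was at 31 (all genes 41.2%). No peak of either mark came within 1 kb of the whole gene span at 28 of the 38 genes, against 32.7% of all protein-coding genes. The same 5 genes overlapped an H3K4me3 peak anywhere in their span (all genes 52.0%). H3K4me1 overlapped the span of 6 genes, HOXA3, HOXC4, HOXC5, HOXC6, HOXC10 and HOXD3 (all genes 60.5%). Neighbouring HOX genes are not independent of each other, so the intervals are too narrow for 4 loci.

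Counts along the paralogue order were not tested against each other. Of the 16 genes with paralogue numbers 9 to 13, which pattern the trunk, limbs and tail end, 0 had H3K4me3 at the start and 0 had H3K4me1. Among the 15 genes numbered 4 to 8 there were 4 with H3K4me3 and 4 with H3K4me1, and among the 7 genes numbered 1 to 3 there were 1 and 1. The 4 with H3K4me3 rested on 2 peaks, and so did the 4 with H3K4me1. The gene with H3K4me3 among numbers 1 to 3 was HOXA3, at an inner start that lies between HOXA6 and HOXA7. By either end of the gene the H3K4me3 counts were 1 for numbers 9 to 13, 4 for 4 to 8 and 0 for 1 to 3. The fourth paralogues differed between clusters in their H3K4me3 calls. HOXA4 and HOXC4 carried H3K4me3, while HOXD4 was 10.6 kb and HOXB4, known for its role in blood stem cell growth, 253 kb from the nearest H3K4me3 peak.

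**Figure D1:**
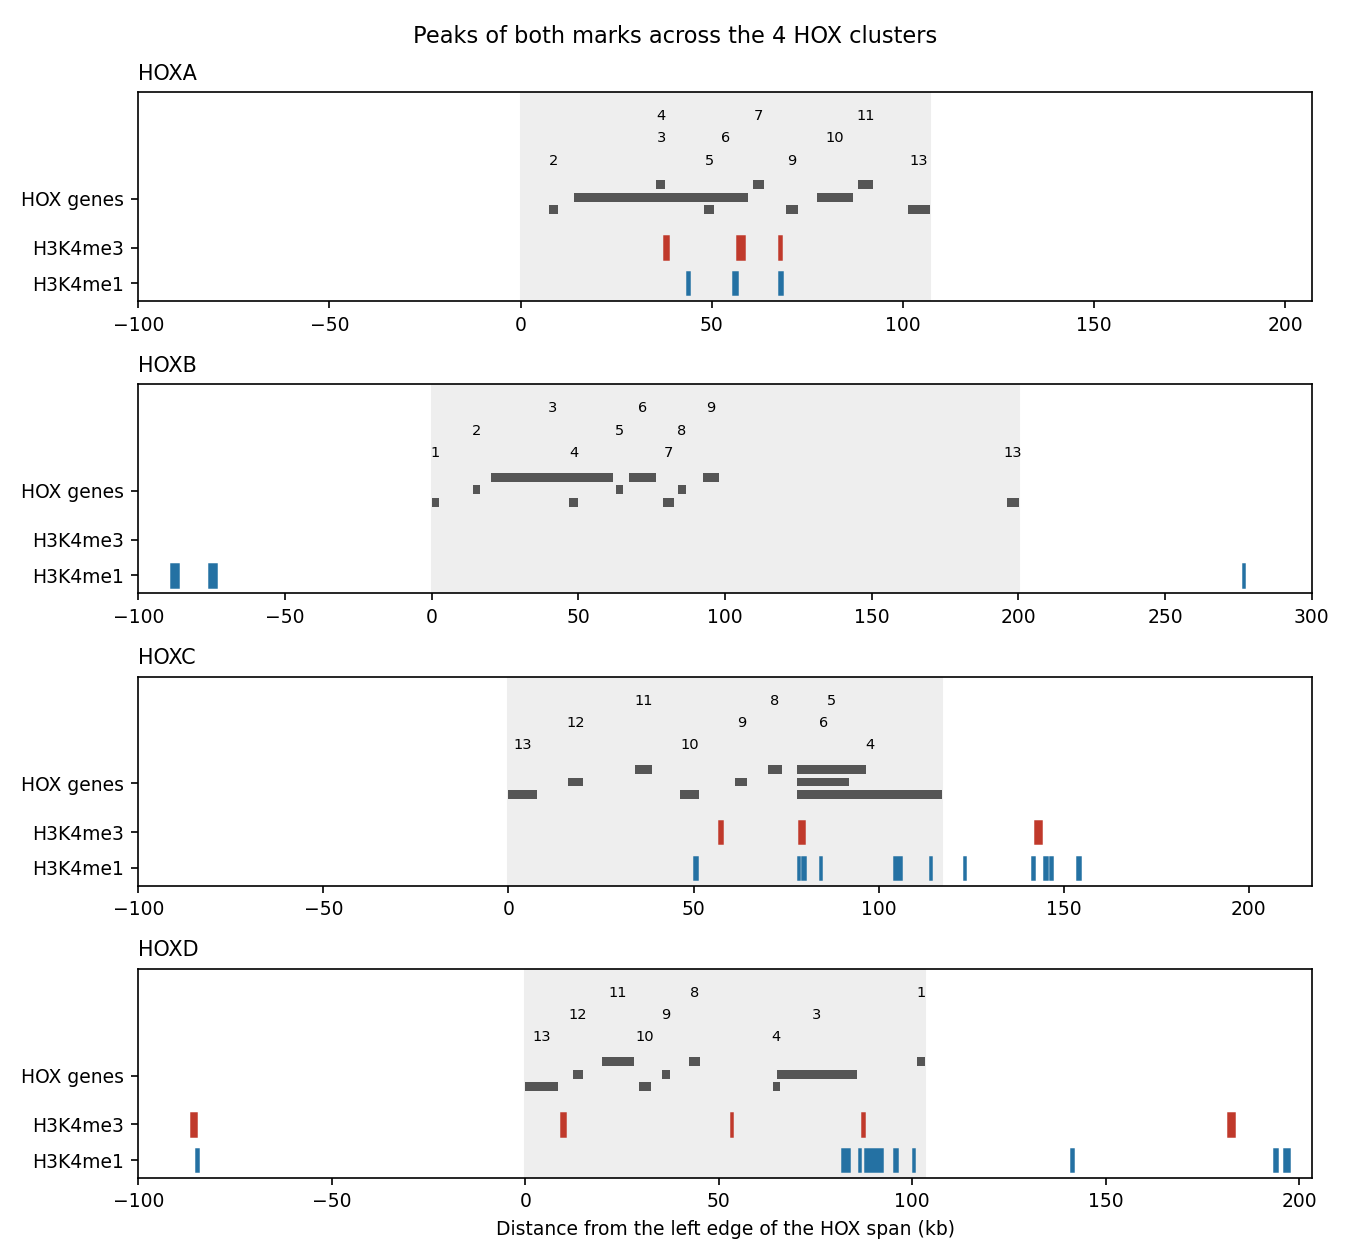
Peaks of H3K4me3 (red) and H3K4me1 (blue) in each cluster and 100 kb on each side, against the distance from the left edge of the HOX span in kb; grey shading marks the HOX span, dark bars are HOX genes labelled by paralogue number, and peaks are outlined so that short ones can be seen. The HOXB span is empty, and HOXA holds peaks only inside its span. Of the 9 H3K4me1 peaks of HOXD, the 5 inside its span gather between the end of HOXD3 and the start of HOXD1.

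In the 4 windows, each a HOX span with 100 kb on both sides, the peaks described were 11 of H3K4me3 covering 11.3 kb and 26 of H3K4me1 covering 25.3 kb. Of these, 8 and 14 lay inside the HOX spans. H3K4me3 peaks numbered 3 in the HOXA window, 0 in HOXB, 3 in HOXC and 5 in HOXD, and H3K4me1 peaks 3, 3, 11 and 9. The number of peaks within 100 kb of a gene's midpoint had a median of 3 for H3K4me3 over HOX genes and 2 over all protein-coding genes, and of 3 and 7 for H3K4me1. HOXB stood apart from the other clusters, since each of its 10 genes had 0 H3K4me3 peaks in that distance. Those 10 neighbours lie in the same stretch without H3K4me3, so they are not separate cases. Over all 38 HOX genes 26.3% had 0, close to the 26.5% of all protein-coding genes. Pileup (fragment coverage), fold over the local input background and −log10 q are the authors' values per peak, and each is ranked only within its own list. The list medians were a fold of 4.53 and a −log10 q of 8.97 for H3K4me3, and 2.37 and 2.27 for H3K4me1.

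HOXA, on chromosome 7 (coordinates on GRCh38), held all of these peaks inside the cluster and 0 of either mark in its flanks. The strongest H3K4me3 peak of the cluster, 1089 bp from 27130444 to 27131532, lay over the start of HOXA4 at 27130757, a position also inside the long span of HOXA3, with a pileup of 28.83, a fold of 9.0 and a −log10 q of 26.7, at or above 97.5% of its list. A peak of 1882 bp from 27149483 to 27151364, with a fold of 6.28 and a −log10 q of 16.7, lay over an inner start of HOXA3 at 27150950. The peak lies inside HOXA-AS3, an antisense lncRNA gene, and its edge is 1709 bp from the start of HOXA6. The other 6 listed starts of HOXA3, a gene of pharyngeal and neck patterning, had no H3K4me3 within 1 kb. The remaining peak, 411 bp from 27160691 to 27161101 at a fold of 3.47, lay between HOXA7 and HOXA9, 4016 bp from the start of HOXA7, and was wholly covered by an H3K4me1 peak. Where −log10 q had to reach 10, the peaks at HOXA4 and HOXA3 remained of the 3.

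H3K4me1 in HOXA was limited to 3 peaks of 579, 990 and 841 bp with folds of 4.07, 3.59 and 2.87. They lay 5752 bp upstream of HOXA4, 762 bp upstream of HOXA6, which acts in skeletal patterning, and between HOXA7 and HOXA9. The second of these ended in the H3K4me3 peak of the inner HOXA3 start and overlapped it by 43 bp. The T-ALL genes of the cluster were bare at the start. HOXA9 was 4.44 kb from the nearest H3K4me3 peak, HOXA10 13.2 kb, HOXA11 24.1 kb and HOXA13, a gene of limb and genital development, 38990 bp. From 27161102 onward a stretch of 501 kb had no H3K4me3 peak, and HOXA9, HOXA10, HOXA11 and HOXA13 lay wholly inside it with the lncRNA gene HOTTIP.

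The promoter windows of the 2 HOXA starts under strong H3K4me3, of the shared HOXC start and of 3 bare starts are printed as examples of marked and bare starts. Each runs from 250 bases before to 50 after the start, in the direction of the gene, from RefSeq on GRCh38.p14, and capitals mark CpG dinucleotides. HOXA4 holds 27 CpG, the inner start of HOXA3 29, the shared start of HOXC4 and HOXC5 15, HOXA9 22, HOXB1 11 and HOXD13 24.
HOXA4, chr7:27130708-27131007, minus strand: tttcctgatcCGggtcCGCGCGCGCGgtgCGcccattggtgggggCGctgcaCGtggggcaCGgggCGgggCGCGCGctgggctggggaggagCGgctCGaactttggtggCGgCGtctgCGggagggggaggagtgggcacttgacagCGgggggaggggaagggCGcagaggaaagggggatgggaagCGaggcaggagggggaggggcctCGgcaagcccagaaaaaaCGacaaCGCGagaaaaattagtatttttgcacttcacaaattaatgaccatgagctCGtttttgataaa
HOXA3 inner start, chr7:27150901-27151200, minus strand: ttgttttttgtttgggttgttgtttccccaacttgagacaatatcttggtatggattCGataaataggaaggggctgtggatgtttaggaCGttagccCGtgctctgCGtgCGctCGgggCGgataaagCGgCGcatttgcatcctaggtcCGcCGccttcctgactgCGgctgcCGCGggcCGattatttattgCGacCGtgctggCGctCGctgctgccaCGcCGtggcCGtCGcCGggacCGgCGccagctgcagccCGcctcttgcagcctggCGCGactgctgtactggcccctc
HOXC4 and HOXC5 shared start, chr12:54016638-54016937, plus strand: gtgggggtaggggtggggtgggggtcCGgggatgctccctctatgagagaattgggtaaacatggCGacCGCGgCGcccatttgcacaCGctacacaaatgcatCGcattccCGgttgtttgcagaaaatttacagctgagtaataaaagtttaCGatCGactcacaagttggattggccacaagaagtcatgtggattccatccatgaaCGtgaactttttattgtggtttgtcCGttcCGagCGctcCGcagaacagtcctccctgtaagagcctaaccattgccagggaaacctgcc
HOXA9, chr7:27165488-27165787, minus strand: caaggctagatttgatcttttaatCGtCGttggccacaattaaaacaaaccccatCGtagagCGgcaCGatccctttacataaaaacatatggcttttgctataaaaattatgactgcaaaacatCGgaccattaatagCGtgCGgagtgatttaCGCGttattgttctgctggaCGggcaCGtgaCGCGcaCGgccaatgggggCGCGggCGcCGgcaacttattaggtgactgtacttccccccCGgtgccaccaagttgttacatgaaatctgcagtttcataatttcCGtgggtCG
HOXB1, chr17:48530962-48531261, minus strand: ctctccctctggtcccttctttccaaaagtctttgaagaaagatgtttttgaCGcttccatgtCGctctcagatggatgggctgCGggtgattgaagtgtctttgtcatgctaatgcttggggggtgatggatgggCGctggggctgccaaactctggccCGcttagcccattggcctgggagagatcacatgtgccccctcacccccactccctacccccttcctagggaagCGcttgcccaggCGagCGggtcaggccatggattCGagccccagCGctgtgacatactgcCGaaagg
HOXD13, chr2:176092471-176092770, plus strand: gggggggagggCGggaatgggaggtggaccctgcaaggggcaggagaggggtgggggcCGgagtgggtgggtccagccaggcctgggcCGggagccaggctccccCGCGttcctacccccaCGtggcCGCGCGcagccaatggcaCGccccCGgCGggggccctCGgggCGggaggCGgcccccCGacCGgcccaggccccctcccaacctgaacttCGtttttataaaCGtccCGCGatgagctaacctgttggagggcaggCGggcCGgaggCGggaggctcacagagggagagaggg

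HOXB, on chromosome 17 from 48528526 to 48728750, had no peak of either mark in its 200 kb span and no H3K4me3 peak in its 400 kb window. The H3K4me3-free stretch around it ran for 723 kb, from 48108399 to 48830944, and held all 10 HOXB genes among 14 protein-coding genes. Stretches at least this long numbered 895 of the 11060 between neighbouring H3K4me3 peaks, whose median was 69.2 kb. The distance from a HOXB start to the nearest H3K4me3 peak was 102 kb for HOXB13, known from prostate and lower gut, and up to 300 kb for HOXB1, a hindbrain gene, with 232 kb as the median. H3K4me1 was missing over 350 kb (48454933 to 48805134), and 1405 of 61995 stretches between H3K4me1 peaks were at least as long. The 3 H3K4me1 peaks of the window lay in the flanks. A peak of 2515 bp with a fold of 2.32 was inside SKAP1, an adaptor gene of T cell signalling, and one of 2150 bp with a fold of 3.36 was 76.1 kb from HOXB1 in a lncRNA gene. The third, 225 bp inside TTLL6, had a fold of 1.68. With flanks of 50 kb the window held 0 H3K4me1 peaks.

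HOXC, on chromosome 12 from 53938831 to 54056030, held the strongest H3K4me3 of the 4 clusters. The peak at HOXC4, HOXC5 and HOXC6 was 1141 bp, from 54017462 to 54018602, with a pileup of 34.25, a fold of 11.1 and a −log10 q of 34.4, at or above 99.5% of the H3K4me3 list. It began 574 bp downstream of their shared start at 54016888, inside the first part of all 3 gene spans, and overlapped the lncRNA gene LOC124902939. An H3K4me1 peak of 230 bp lay 154 bp downstream of the start and ended 190 bp before the H3K4me3 peak. Another, of 729 bp, overlapped the other edge of the H3K4me3 peak by 325 bp. Their −log10 q of 1.24 and 1.45 stood at percentiles 18.3 and 26.5 of the H3K4me1 list. H3K4me3 at this promoter was thus among the highest ranks of its list while the H3K4me1 on both sides was in the lower ranks of its own.

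A second H3K4me3 peak of the HOXC span, 716 bp from 53995763 to 53996478 with a pileup of 24.08, a fold of 5.44 and a −log10 q of 17.7, lay inside the antisense lncRNA gene HOXC-AS2. It was 3683 bp from the start of HOXC9, the nearest HOX start. The third, 1640 bp at a fold of 5.70, lay over the start of the lncRNA gene LOC100240735 in the flank, 64312 bp from the HOXC4 start. All 3 H3K4me3 peaks of the window stood above the median of their list. HOXC8, HOXC9 and HOXC10 had starts 8.48, 3.68 and 10.6 kb from H3K4me3. HOXC13, a regulator of hair and nail keratins, was 56.9 kb away, and a stretch of 268 kb without H3K4me3 held HOXC13, HOXC12, HOXC11 and HOXC10. The lncRNA gene HOTAIR, in that stretch, carried no peak of either mark.

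H3K4me1 peaks were most numerous in HOXC but weak. Of the 11, 5 stood above the list median of −log10 q, and the lowest, 512 bp in the lncRNA gene FLJ12825, had a fold of 1.23. The 3 longest were 1814 bp inside HOXC4 (fold 3.03), 773 bp inside HOXC10 (fold 1.59) and 740 bp in FLJ12825 (fold 2.74). The highest fold, 3.97, belonged to a peak of 479 bp inside HOXC4, 35712 bp downstream of the shared start. HOXC4, with the longest span of the trio, overlapped 5 H3K4me1 peaks, and HOXC5 and HOXC6 overlapped 3 of them.

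HOXD, on chromosome 2 from 176087487 to 176190907, held H3K4me1 peaks of high rank and H3K4me3 peaks of which 1 of 5 ranked above the list median by −log10 q, but 3 of 5 by fold. None of its 9 genes had H3K4me3 within 1 kb of a start. The 3 H3K4me3 peaks inside the span were 992 bp with a fold of 3.24, 275 bp with 4.55 and 498 bp with 3.70, and their −log10 q of 2.90, 6.52 and 6.98 stood at percentiles 7.96, 33.6 and 36.7 of the list. The first lay between HOXD13 and HOXD12, 2084 bp before the HOXD12 start and past the 3′ end of HOXD13, a gene of digit formation. When either end of a gene was counted, HOXD13 entered and the inner start of HOXA3 was lost, so 5 of 38 genes were again marked, against 49.4% of all genes. For H3K4me1 the count by either end was 7, with HOXC10 and HOXD3 added, against 42.6%. The second lay 10.6 kb before HOXD4 and 3568 bp from the start of HOXD-AS2, and the third inside the lncRNA gene HAGLR between HOXD3 and HOXD1. The 2 flank peaks lay over the starts of LNPK, a gene of the endoplasmic reticulum, at a fold of 4.66, and of MTX2, which acts in mitochondrial protein import, at 7.35. Above the median −log10 q of the list, the MTX2 peak was the 1 left of the 5.

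All 9 H3K4me1 peaks of the HOXD window ranked at or above percentile 84.2 of −log10 q in the list, and their median fold was 5.27 against 2.37 for the list. In the HOXD span 5 peaks followed each other between 176169274 and 176187956, from the inside of HOXD3 to the start of HOXD1. The first, 1977 bp inside HOXD3 from 176169274 to 176171250, had a pileup of 18.43 and a fold of 7.93, at or above 99.8% of the list by fold. The longest, 4425 bp from 176175235 to 176179659 at a fold of 5.07, lay over starts of HAGLR and HAGLROS. The short H3K4me3 peak inside HAGLR sat between this peak and one of 209 bp, 161 and 598 bp from them, and overlapped neither. The next was 733 bp with a fold of 3.62 in HAGLR. The last of the 5, 276 bp with a fold of 5.27, lay 712 bp before the start of HOXD1. Of the 26 H3K4me1 peaks in the 4 windows, 4 had a −log10 q of at least 10 (15.4%), all in the HOXD window, and in the list 2.82% did. Of those 4, a peak of 356 bp at LNPK (−log10 q 15.2) and one of 609 bp past HOXD1 (10.5) lay in the flanks. Among the flank peaks, the longest was 1459 bp inside MTX2 with a fold of 3.79. From HOXD4 to HOXD13 the distance to the nearest H3K4me1 peak grew from 17.7 to 76.6 kb, since 166 kb between 176002805 and 176169273 held none.

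**Figure D2:**
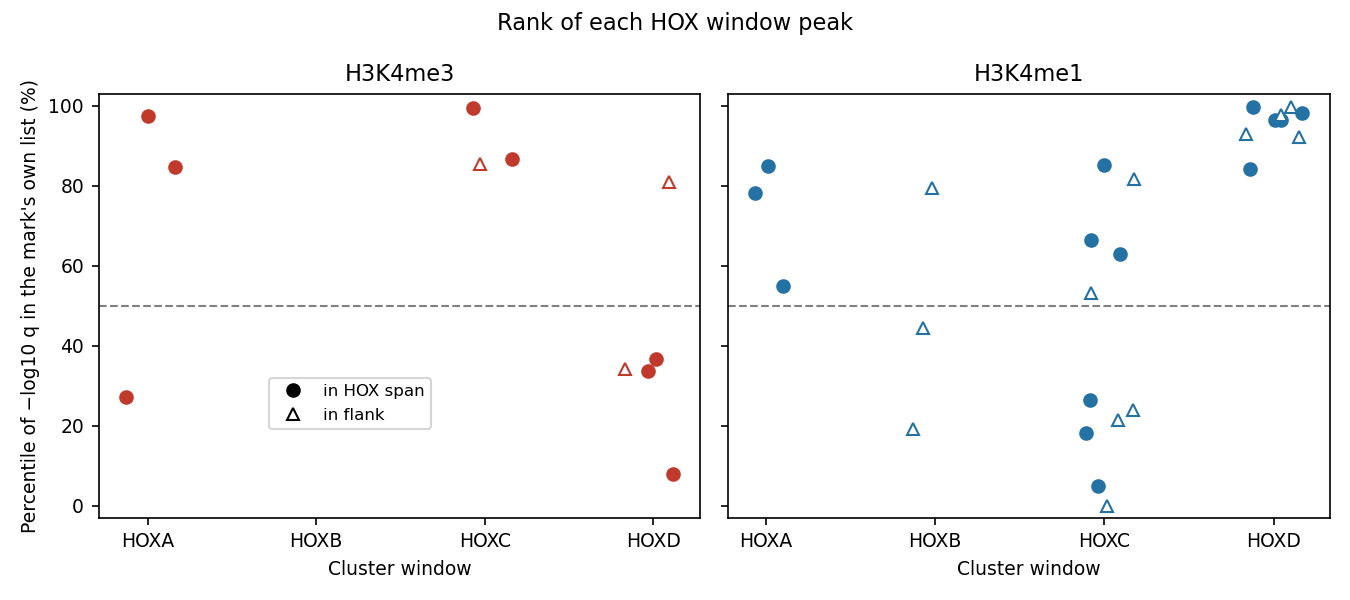
Percentile of −log10 q within its own list for each H3K4me3 peak (left) and H3K4me1 peak (right) of the 4 windows; filled circles lie in the HOX span, open triangles in the 100 kb flanks, and the dashed line is the list median. In HOXC the 3 H3K4me3 peaks are at 85.4 or higher and the H3K4me1 peaks spread over the range, while in HOXD all 9 H3K4me1 peaks are at 84.2 or higher and 4 of 5 H3K4me3 peaks are below the median.

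The marks seldom lay on the same bases in the windows. Of the 11 H3K4me3 peaks 3 overlapped H3K4me1 (27.3%, interval 6.02 to 61), against 46.8% of the whole list, and the interval includes that share. With a gap of up to 1 kb allowed the count was 6 of 11 (54.5%, 23.4 to 83.3), against 86.7%. No test of this difference was made, and the peaks of 1 window share a locus.

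**Figure D3:**
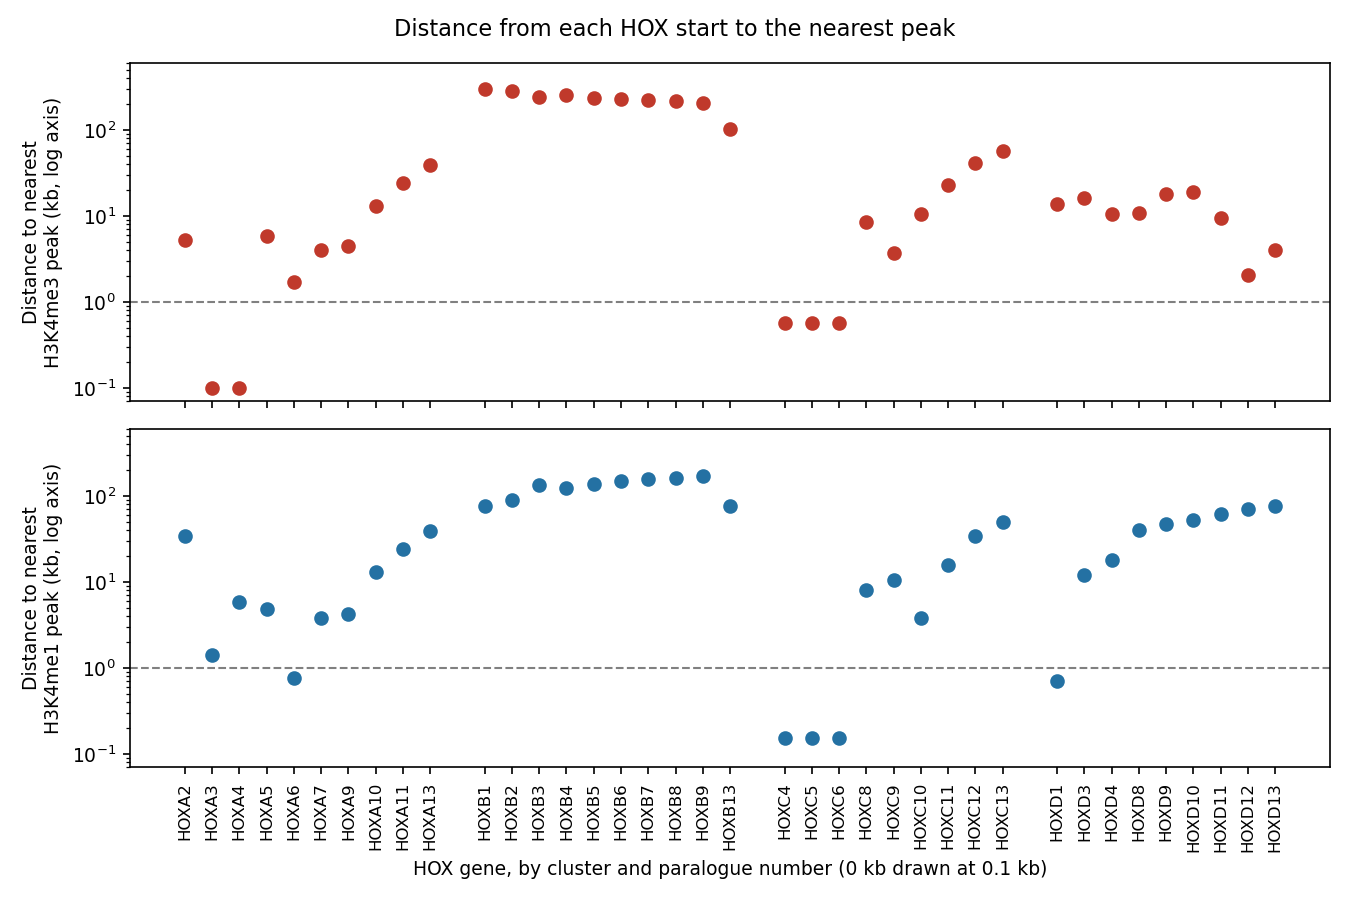
Distance in kb, on log axes, from the start of each of the 38 HOX genes to the nearest H3K4me3 peak (top) and H3K4me1 peak (bottom), with genes in paralogue order within each cluster, 0 kb drawn at 0.1 kb and a dashed line at 1 kb. HOXB genes lie 102 to 300 kb from H3K4me3, and the H3K4me3 distance grows from HOXA7 to HOXA13 and from HOXC9 to HOXC13.

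Distances from HOX starts to H3K4me3 had a median of 4.87 kb in HOXA, 232 kb in HOXB, 8.48 kb in HOXC and 11 kb in HOXD, against 0.019 kb for all protein-coding genes with a listed start. For H3K4me1 the medians were 5.3, 137, 8.06 and 46.6 kb, against 1.55 kb. In HOXD the order was not the same for both marks. HOXD12 and HOXD13 were nearer to H3K4me3 (2084 and 3999 bp) than HOXD1 (13595 bp), while for H3K4me1 HOXD1 was nearest at 0.712 kb.

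HOX promoters with a listed start had about as many CpG dinucleotides as other promoters, and fewer of the CpG-rich ones had a peak. The 20 HOX genes with a listed start gave 26 start windows, with a median of 22.5 CpG and 58.0% GC. These genes were mostly of HOXA (9) and HOXD (8), and HOXA3 alone gave 7 windows, so HOXB and HOXC are hardly represented. The 22078 windows of all protein-coding genes had 21 CpG and 62.3% GC. Of all windows with at least 20 CpG, 70.7% (8225 of 11639) had H3K4me3 within 1 kb, and of the 15 HOX windows with as many, 2 did (13.3%, interval 1.66 to 40.5). The 2 were HOXA4 and the inner start of HOXA3. HOXA13 had the most CpG of the HOX windows, 44, at or above 95.5% of all windows, and its start was bare of both marks. HOXD1, with 36 CpG, had H3K4me1 only. The HOXC start beside the strongest H3K4me3 peak had 15 CpG, and its peak lay downstream of the printed window.

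**Figure D4:**
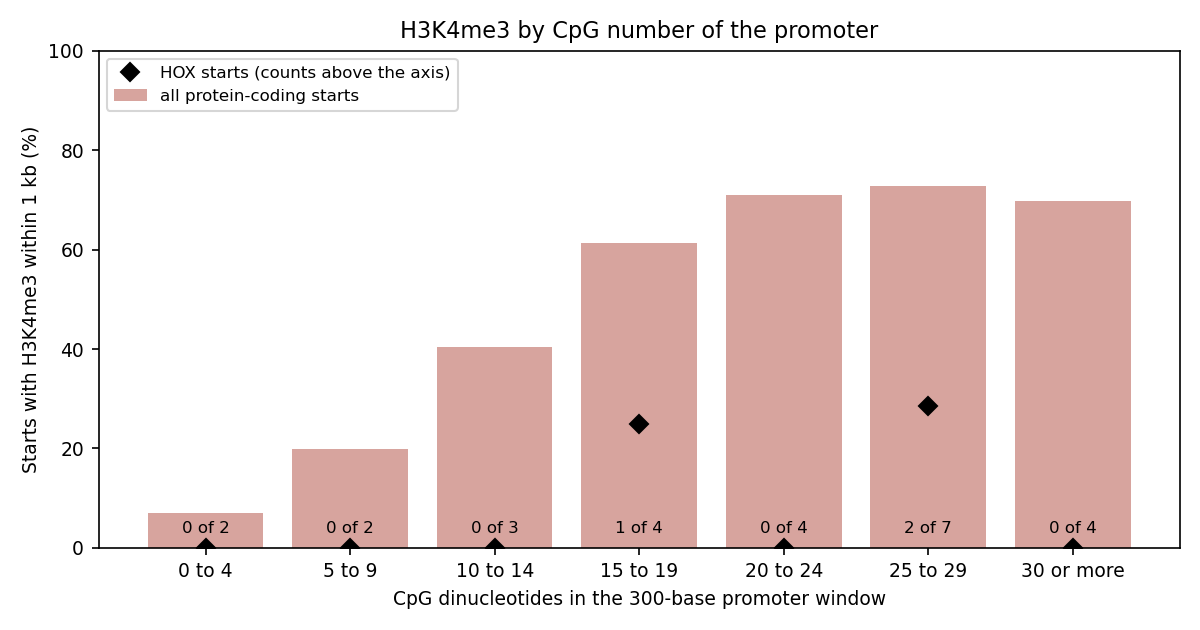
Share of all protein-coding starts with an H3K4me3 peak within 1 kb (bars, in percent) by the number of CpG dinucleotides in the 300-base promoter window, with HOX starts as diamonds and their counts printed above the axis. The share over all starts is 69.7% to 72.7% from 20 CpG upward, while 2 of 15 listed HOX starts in that range are marked. The listed HOX starts are mostly of HOXA and HOXD.

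Short promoter motifs were searched on both strands of the windows, where matches to different motifs may overlap. CCAAT was found in 17 of 26 HOX windows (65.4%) and 34.7% of all, GGGCGG in 13 (50%) and 56.3%, and TATAAA in 5 (19.2%) and 9.5%. The TATAAA windows were those of HOXA9, both starts of HOXA10, the outermost start of HOXA3 and HOXD13, all without H3K4me3 within 1 kb. TGATNNAT, a form of the site that PBX and HOX proteins bind together, was found in HOXA2, HOXB1 and HOXD11 (11.5%) and in 5.21% of all windows. Starts of 1 gene and of neighbouring genes share sequence, and a match is only a match of letters.

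MicroRNA genes lie inside the clusters and are known to act on HOX transcripts, so their position against the peaks was read too. Of the 8 listed in the HOX spans, none lay under a peak of either mark. Their hairpins are short, 59 to 110 bp, and the share of all microRNA genes under a peak was not computed. MIR196A2 in HOXC was 3.97 kb from H3K4me3 and 2.06 kb from H3K4me1, MIR196B in HOXA 8.42 and 8.18 kb, and MIR196A1 in HOXB 198 and 173 kb. MIR10B in HOXD was 9.42 kb from H3K4me3, and MIR10A in HOXB 251 kb. MIR7704, inside the span of HOXD1, was nearest to a mark, 0.916 kb from H3K4me1. The 5p products of the miR-196 genes in 3 clusters share their seed (bases 2 to 8, in capitals), which differs from that of miR-10a.
hsa-miR-196a-5p, from MIR196A1 and MIR196A2: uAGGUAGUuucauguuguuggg
hsa-miR-196b-5p, from MIR196B: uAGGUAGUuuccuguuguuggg
hsa-miR-10a-5p, from MIR10A: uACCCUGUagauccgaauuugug

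The lncRNA genes of the windows were read in the same way. Of 39 lncRNA genes, 6 overlapped an H3K4me3 peak: HOXA-AS3, HOXC-AS2, LOC124902939, FLJ12825, LOC100240735 and HAGLR (all lncRNA genes 13.8%). Among the 28 with a listed start, 1 had H3K4me3 there, LOC100240735 (all lncRNA genes 17.4%), and 3 had H3K4me1, LOC100240735, HAGLR and HAGLROS (all 21.3%). The 9 other protein-coding genes include the homeobox genes EVX1 and EVX2 at the ends of HOXA and HOXD. SKAP1 had no listed start. Of the 8 with a listed start, LNPK and MTX2 alone had H3K4me3 there (all genes 53.5%). Where a HOX gene and an antisense gene overlap, a peak cannot be given to either.

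A chosen list of 113 homeobox genes outside the clusters also had few marked starts. The list is not complete. It leaves out the PBX, MEIS, PKNOX and TGIF genes, read with the cofactors below, where 7 of 9 starts had H3K4me3. Of its 81 genes with a listed start, 7 had H3K4me3 there (8.64%, interval 3.55 to 17.0) and 9 had H3K4me1 (11.1%). The difference from HOX genes was not tested. Among these 7, the longest H3K4me3 within 5 kb of a start was at TLX1, the gene rearranged in this line, with 7056 bp, followed by OTX1 (1850 bp), PITX1 (1843 bp), HESX1 (1500 bp), PAX6 (1175 bp), DLX2 (923 bp) and DLX1 (187 bp). Windows of the genes on this list had a median of 23 CpG, and 6 of 70 with at least 20 CpG had H3K4me3 within 1 kb (8.57%).

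**Figure D5:**
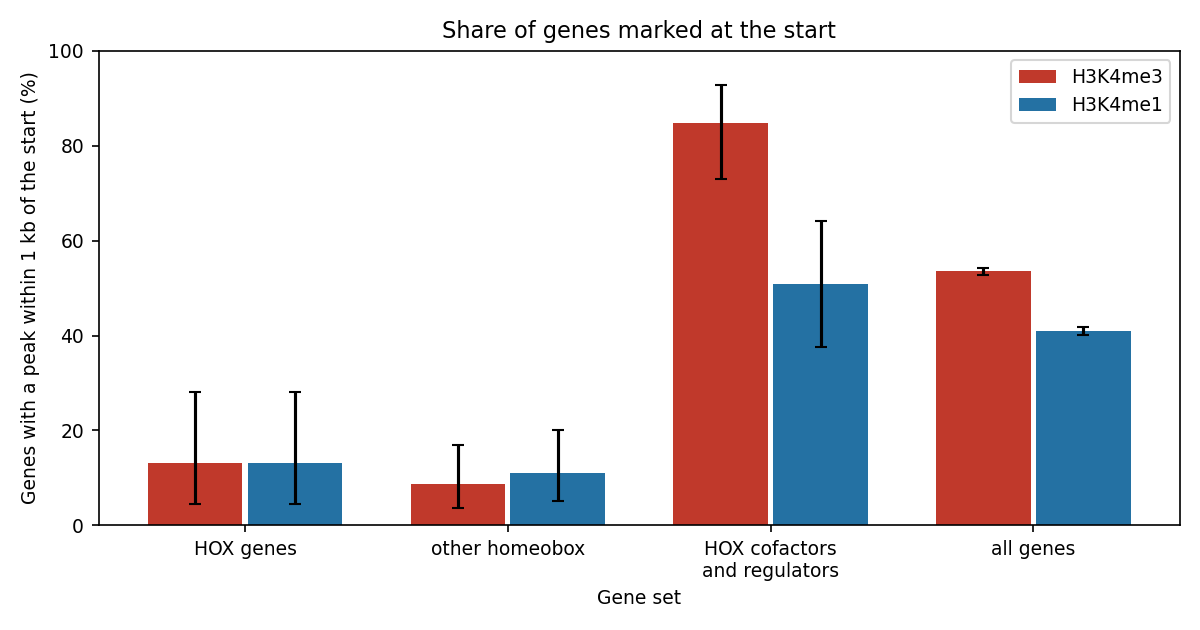
Share of genes with a peak within 1 kb of a start, in percent, for H3K4me3 (red) and H3K4me1 (blue), with exact 95% intervals that cover counting error only. HOX genes (13.2% for both marks) and the chosen list of other homeobox genes (8.64% and 11.1%) lie below all protein-coding genes (53.5% and 40.9%). HOX cofactors and regulators are at 84.7% and 50.8%.

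The proteins that work with HOX factors or control the clusters were mostly marked. Of 59 such genes with a listed start, 50 had H3K4me3 there (84.7%, 73.0 to 92.8) and 30 had H3K4me1 (50.8%). All 12 trithorax-side genes, all 21 Polycomb-side genes and all 7 genes of CTCF and cohesin had H3K4me3. By H3K4me3 length within 5 kb of a start, TGIF1, a TALE homeodomain repressor, led with 6277 bp and RARA, a retinoic acid receptor, had 5379 bp. They were followed by the Polycomb gene JARID2 (4855 bp), the H3K27 demethylase KDM6B (4795 bp), the Polycomb gene BMI1 (4667 bp) and the cohesin subunit STAG2 (4560 bp). The H3K4 methyltransferase KMT2A had 4294 bp and the H3K27 methyltransferase EZH2 3212 bp. Among TALE cofactors, the homeodomain partners of HOX proteins, 7 of 9 were marked. PBX2 (3133 bp), PBX3 (1577 bp), PBX4 (241 bp), MEIS2 (3556 bp), PKNOX1 (990 bp), TGIF1 and TGIF2 (2661 bp) had H3K4me3, and MEIS1, a partner of HOXA9 in leukaemia, and MEIS3 had 0 bp. CDX2 and CDX4, upstream activators of HOX genes, were unmarked, as were RARB, RXRA, RXRG, CYP26A1 and CYP26B1 of the 8 retinoic acid genes. Above the median −log10 q of the H3K4me3 list, 28 of the 59 genes had a peak at the start. That threshold removes 50% of the list by construction, and the share of all genes under it was not computed.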

How the data were processed

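The authors' deposited peak tables for H3K4me1 (62087 peaks) and H3K4me3 (11100 peaks) were used; their interval lists were not. Per the file headers, the authors ran the broad mode of MACS2 (version 2.1.0.20150731) against the input, with q of 0.05 for strong and 0.1 for broad regions and 1 tag kept per position, and scaled down whichever library was larger. The deposited pileup is a coverage signal, the deposited fold is a ratio to the local background, and the deposited −log10 p and q rank the peaks. The build was GRCh38, per the submitters' processing notes, and alignment options were not given in the sources used here. Weak marks below the caller's threshold leave no peak, so a bare gene is one without a call.

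Gene spans and promoter windows came from RefSeq on GRCh38.p14. A start was taken 250 bases into the promoter window, which listed 20 HOX genes. For HOXA5, HOXB2 to HOXB9, HOXB13, HOXC6, HOXC8 to HOXC13 and HOXD9 it was the end of the gene span that the strand of the other members of the cluster gives. The background was all 15843 protein-coding genes with a listed start. A gene was marked when a peak covered any base within 1 kb of a start, and a gene with several starts when any was. Window peaks were counted from 1 bp of overlap, once per cluster. Overlap functions were tested on simulated data, with Python 3.11.15, pandas 2.3.3 and SciPy 1.17.1. Named were all HOX genes with a peak within 1 kb of the span, all peaks of the HOX spans or their summary, the 3 longest H3K4me1 peaks per window, neighbours with H3K4me3 at the start, up to 6 or 8 list members by H3K4me3 length and every exception where 5 or fewer. Genes named outside this rule were chosen after their values were seen. Another member of the 39, with the peaks within 1 kb of it, is not reported here. Counts of HOX genes and of window peaks leave them out, while distances to the nearest peak, peak-free stretches and peaks around gene midpoints use the whole lists. The members and lists were chosen with earlier results of these data known. Alternatives were other thresholds, windows, flanks and overlap rules.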

Additional observations from a re-analysis of the deposited data

How the results depend on the processing

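Of 60 alternatives computed, 38 left a value within 1.5 times its reported value and 22 did not. With peaks above the list's median −log10 q, which removes 50% of each list by construction, 1 H3K4me3 peak was left in the HOXD window, and H3K4me1 peaks numbered 1 in HOXB and 5 in HOXC. Under that setting 2 HOX genes had H3K4me1 at the start, 28 of 59 cofactors and regulators and 4 of 81 other homeobox genes had H3K4me3, and 1 of 6 H3K4me3 peaks overlapped H3K4me1. At a −log10 q of at least 10, the HOXD window held 1 H3K4me3 peak, H3K4me1 peaks numbered 0 in HOXA, HOXB and HOXC and 4 in HOXD, and 0 HOX genes had H3K4me1 at the start. With as many H3K4me1 as H3K4me3 peaks, HOXA held 1, HOXB 0 and HOXC 1, and HOXD kept its count of 9. Flanks of 50 kb gave 3 H3K4me3 peaks in HOXD and 0 H3K4me1 peaks in HOXB. With 50% of the start window covered, 2 HOX genes had H3K4me3 and 0 had H3K4me1. Overlap of H3K4me3 with H3K4me1 was 6 of 11 with a gap of 1 kb and 1 of 11 with 50% of the peak covered. The HOXB window had 0 H3K4me3 peaks under each of the 4 alternatives run for it. Those settings could only remove peaks, so that result was fixed in advance, and they are among the 38. HOX genes with H3K4me3 at the start numbered 5 at both stricter thresholds, 6 with 2 kb on each side and 4 of the 20 with a listed start, a setting chosen after seeing the data. Shares of all genes marked at the start were not computed under these thresholds, wider windows or coverage rules, so the gene counts have no background there. No paired analysis was possible because each mark had 1 library.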
